A study of Homo sapiens with 4 samples.

Results

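The annexins are a family of calcium-dependent phospholipid-binding proteins. The 10 annexin genes described here, ANXA1, ANXA2, ANXA3, ANXA4, ANXA5, ANXA6, ANXA7, ANXA9, ANXA10 and ANXA11, were taken by name. That choice was made with earlier results of these data known. All 20 probe sets annotated to 1 of these genes and to no other were kept, of 41039 single-gene probe sets that covered 19741 genes. RNA came from the human lung adenocarcinoma lines CL1-5 and CL1-0. CL1-0 is the parent line and CL1-5 its more invasive derivative. CL1-5 cells carried either a G9a shRNA or a control shRNA, and CL1-0 cells carried either HA-tagged G9a or a control vector, which made 4 groups. The G9a shRNA was a single construct. All 4 were stably transduced populations kept after puromycin selection, and no parental cells without a vector are compared here. G9a, the product of EHMT2, methylates lysine 9 of histone H3. The study asked what lowering or raising G9a does to gene expression in these cells.

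Each group was 1 Affymetrix array with MAS5 signals on a linear scale. No difference within a line therefore has a replicate check, and no p-value is given there. The median signal was 14.9 on the G9a shRNA array and 11.3 on the control shRNA array, 12.3 on the HA-G9a array and 11.7 on the vector array. Signals were set to a floor of 3.35 and log2-transformed. A probe set counts as measured in a comparison where its brighter array reached 12.5, the median of all values. A relative log2 ratio is the ratio minus that of the median measured gene, which was 0.42 for G9a shRNA over control shRNA and -0.08 for HA-G9a over vector. EHMT2, the targeted gene, read 28.1 with the G9a shRNA against 376 with the control shRNA, and 862 in HA-G9a cells against 420 in vector cells. The labels give the type II alveolar cell as the origin of both lines. Of 8 type II markers with a usable probe set, between 3 and 5 reached 12.5 on an array and 0 reached 84.2, the 75th percentile of all values. SFTPD and SLC34A2 stayed below 12.5 on all 4 arrays. The summed signal of the 8 markers was 179 with the G9a shRNA and 163 with the control shRNA, and 144 in HA-G9a cells and 151 in vector cells.

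Annexins dock on membranes that carry negatively charged phospholipids, such as phosphatidylserine, when calcium rises. They share a core of repeated calcium-binding domains, while their amino-terminal tails differ and hold the sites for partners such as the S100 proteins. The family is known for membrane repair, vesicle traffic and the control of inflammation, and several members are used as tumour markers.

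After G9a knockdown in CL1-5, ANXA1 was far brighter and ANXA3 far dimmer, and ANXA10 was brighter at a low level. Of the abundant members other than ANXA1, ANXA6 stood just short of 2-fold lower and the rest nearer to the median gene. ANXA1 is a substrate of the EGF receptor and, when secreted, an anti-inflammatory ligand of formyl peptide receptors. Its probe set read 2212 with the G9a shRNA against 146 with the control shRNA, a relative log2 ratio of 3.50 (3.92 before the median was taken off, and 2.65 with the median of its probe sets). In CL1-0 the same probe set read 2696 in HA-G9a cells against 2866 in vector cells, a relative log2 ratio of -0.01. The CL1-5 control was the single low array, and the other three lay within a narrow range. A second, dim ANXA1 probe set read 15.4 with the G9a shRNA against 0.196 with the control shRNA, a relative log2 ratio of 1.77 in which the control was below the floor. On the CL1-0 arrays this dim probe set read 10.2 in HA-G9a cells and 5.52 in vector cells, below the level counted as measured.

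ANXA3 has been linked to invasive growth and drug resistance in several carcinomas. It had 1 probe set, which read 0.309 with the G9a shRNA against 122 with the control shRNA. The knockdown value lay below the floor, so ANXA3 was at least 36.4-fold lower as deposited, and the relative log2 ratio of -5.61 depends on the floor. In CL1-0 it read 3.69 in HA-G9a cells against 7.60 in vector cells, both below the level counted as measured. ANXA3 was thus bright on the CL1-5 control array alone.

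ANXA10, a marker of gastric epithelium, was measured by 1 dim probe set. It read 26.1 with the G9a shRNA against 0.853 with the control shRNA, a relative log2 ratio of 2.54. With HA-G9a it read 27.9 against 4.21 with the vector, a relative log2 ratio of 2.81. Both perturbed arrays were brighter than their controls, although G9a was lowered in one line and raised in the other. As deposited, the difference in CL1-5 was at least 7.77-fold, since the control lay below the floor, and that in CL1-0 was 6.64-fold. MAS5 signals at this level are noisy, and no second ANXA10 probe set was there to set beside it.

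**Figure D1:**
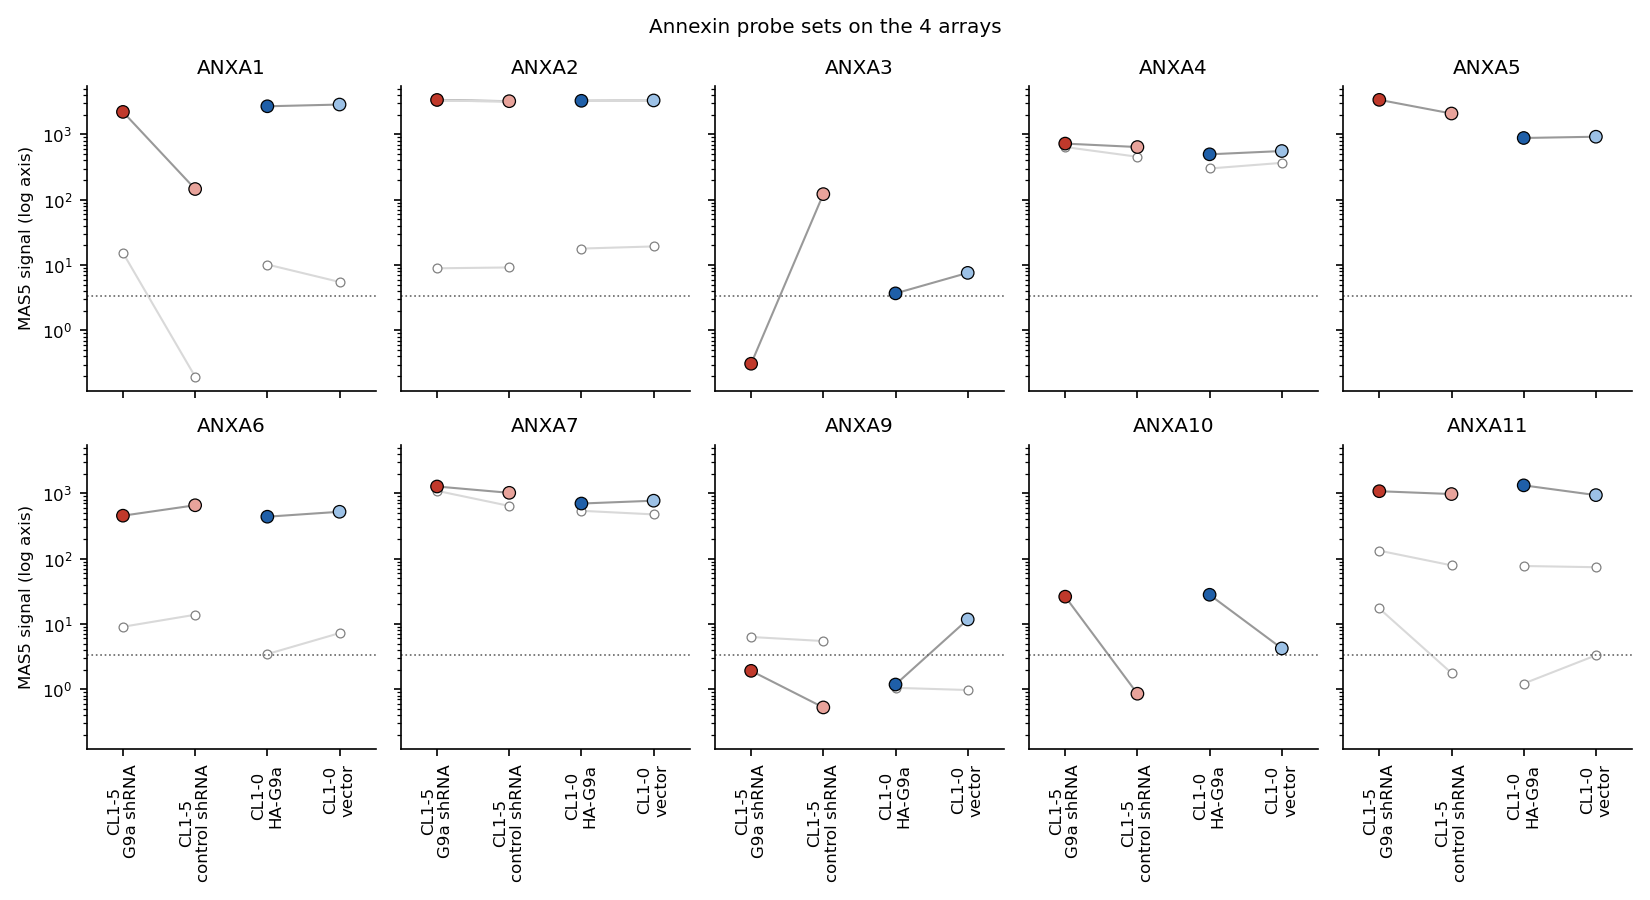
MAS5 signal (log axis) of each annexin probe set on the 4 arrays, with the probe set used for the gene as large filled points, other probe sets as small open points and the floor of 3.35 as a dotted line. ANXA1 is low on the CL1-5 control array alone and ANXA3 is high on that array alone. Levels of different probe sets are not comparable with each other.

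Promoter windows of the 3 genes with the largest ratios are shown with that of ANXA2, which stayed level on all 4 arrays. Each runs from 250 bases before to 50 bases after a RefSeq transcript start in GRCh38.p14, read on the gene's strand. Capitals mark CpG dinucleotides and the motif TATAAA. The windows are chr4:78551520-78551819 (plus strand) for ANXA3, chr9:73151615-73151914 (plus) for ANXA1, chr4:168092287-168092586 (plus) for ANXA10 and chr15:60397937-60398236 (minus) for ANXA2.
ANXA3: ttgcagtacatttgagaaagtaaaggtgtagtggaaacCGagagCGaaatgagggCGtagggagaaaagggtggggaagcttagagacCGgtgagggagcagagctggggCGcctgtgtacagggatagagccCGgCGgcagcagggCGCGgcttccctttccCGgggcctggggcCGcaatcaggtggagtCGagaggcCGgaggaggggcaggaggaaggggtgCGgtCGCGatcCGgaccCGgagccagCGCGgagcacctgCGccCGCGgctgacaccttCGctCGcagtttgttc
ANXA1: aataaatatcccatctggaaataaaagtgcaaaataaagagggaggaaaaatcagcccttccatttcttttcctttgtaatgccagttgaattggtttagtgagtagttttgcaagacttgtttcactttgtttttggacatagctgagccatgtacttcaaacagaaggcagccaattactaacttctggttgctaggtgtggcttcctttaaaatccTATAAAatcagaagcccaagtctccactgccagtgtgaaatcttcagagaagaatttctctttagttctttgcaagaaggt
ANXA10: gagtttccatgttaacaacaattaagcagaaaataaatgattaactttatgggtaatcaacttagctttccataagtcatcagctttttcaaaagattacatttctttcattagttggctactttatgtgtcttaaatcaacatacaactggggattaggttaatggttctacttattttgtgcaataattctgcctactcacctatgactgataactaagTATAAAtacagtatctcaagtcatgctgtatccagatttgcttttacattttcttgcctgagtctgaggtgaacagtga
ANXA2: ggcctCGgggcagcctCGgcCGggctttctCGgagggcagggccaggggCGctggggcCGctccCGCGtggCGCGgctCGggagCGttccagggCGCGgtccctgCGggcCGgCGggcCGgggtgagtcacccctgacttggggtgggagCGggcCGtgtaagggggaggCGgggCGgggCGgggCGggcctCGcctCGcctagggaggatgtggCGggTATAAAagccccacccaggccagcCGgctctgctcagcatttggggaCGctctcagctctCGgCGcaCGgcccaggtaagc

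All 10 genes matched the promoter table, with 14 windows in all, since ANXA4 and ANXA6 had 2 listed starts each and ANXA11 had 3. ANXA1 and ANXA10, the annexin genes past 2-fold brighter after the knockdown, had 0 CpG dinucleotides in their windows. The ANXA3 window had 25 and the ANXA2 window 32, and the other annexin windows had between 5 and 44. Among 35116 promoter windows of this length in the table, the median was 14 and 3.96% held 0 CpGs. TATAAA, searched on both strands, began 31 bases before the start in ANXA1 and in ANXA2, 29 bases before it in ANXA10, and 61 bases before the first listed start of ANXA11. It occurred in 11.5% of all windows and in none of the other annexin windows. The AP-1 type motif TGANTCA, with N for any base, occurred in the ANXA2 window alone among the annexins, 127 bases before the start, and in 7.71% of all windows. The GC box GGGCGG occurred in 45% of all windows on either strand. It was found 3 times in the ANXA2 window and 0 times in those of ANXA1, ANXA3, ANXA9 and ANXA10. These matches describe the reference sequence, and methylation or factor binding was not measured.

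**Figure D2:**
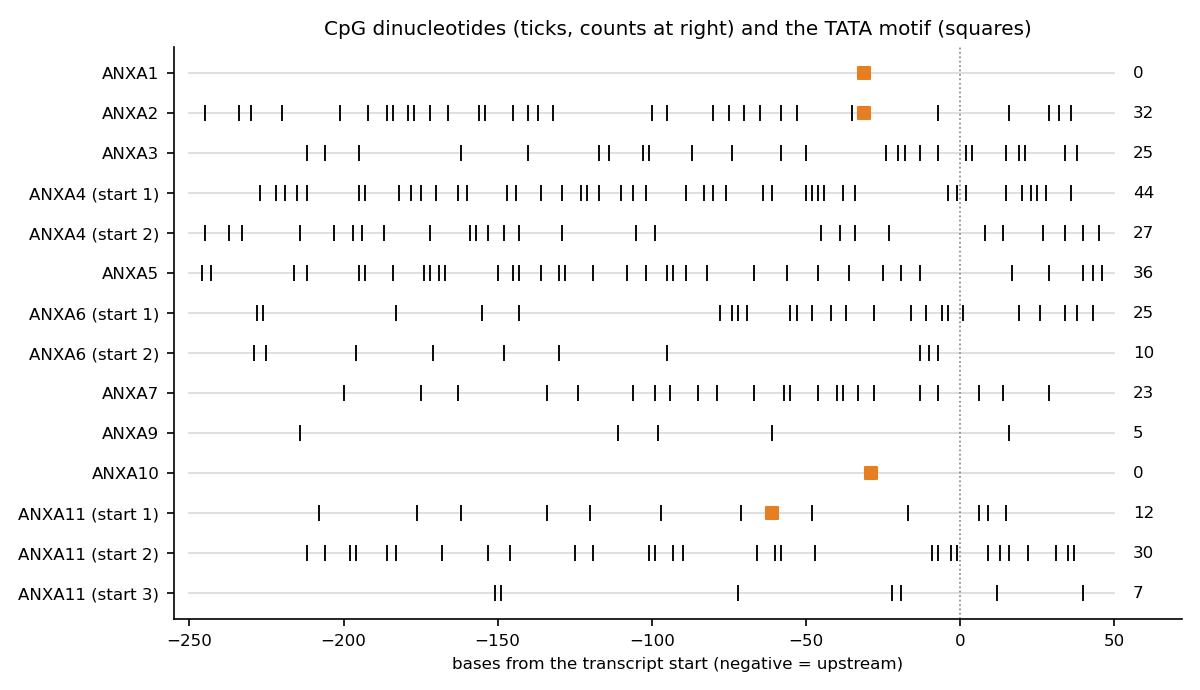
Positions of CpG dinucleotides (ticks, with their number at the right) and of TATAAA (squares) along the 14 annexin promoter windows, in bases from the transcript start. The ANXA1 and ANXA10 windows hold 0 CpGs and a TATAAA close to the start. The ANXA3 window holds 25 CpGs, as does that of the first listed ANXA6 start. The ANXA2 window holds 32 CpGs and also a TATAAA close to the start. A link between these windows and the ratios was not tested.

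The other measured annexins stayed within 2-fold of the median gene after the knockdown by the probe set used for the gene. ANXA2, which forms a complex with S100A10 at the inner face of the plasma membrane, read 3370 with the G9a shRNA and 3225 with the control shRNA. On the CL1-0 arrays it read 3271 in HA-G9a cells and 3311 in vector cells. Its 3 bright probe sets lay between 3180 and 3370 on every array. All 3 are of the _x_at type, whose probes can match related transcripts. The probe set annotated to the pseudogene ANXA2P2 read between 708 and 952, and how much such signal the ANXA2 level includes was not tested. A dim ANXA2 probe set read 8.93 with the G9a shRNA and 9.20 with the control shRNA, against 17.9 in HA-G9a cells and 19.3 in vector cells.

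ANXA5, the phosphatidylserine binder used to stain dying cells, read 3383 with the G9a shRNA against 2089 with the control shRNA. Its relative log2 ratio was 0.28, and 0.70 as deposited. ANXA6, a double-length annexin of endosomes and cholesterol traffic, read 453 with the G9a shRNA against 654 with the control shRNA, a relative log2 ratio of -0.95. Its dim probe set had a relative log2 ratio of -1.03, at 9.03 with the G9a shRNA against 13.8 with the control shRNA. Apart from ANXA1, ANXA6 was the only one of the abundant members with a relative ratio near 2-fold. As deposited the log2 ratio of ANXA6 was -0.53.

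ANXA4, an epithelial annexin of secretory surfaces, read 724 with the G9a shRNA against 641 with the control shRNA. ANXA7, known as synexin for its part in granule fusion, read 1267 with the G9a shRNA against 1014 with the control shRNA. ANXA11, which tethers RNA granules to lysosomes, read 1073 with the G9a shRNA against 971 with the control shRNA. The relative log2 ratios of ANXA4, ANXA7 and ANXA11 were -0.24, -0.10 and -0.28, but as deposited all 3 were positive, so their sign rests on the scaling. Their second probe sets gave relative log2 ratios of 0.07 for ANXA4, 0.35 for ANXA7 and 0.33 for ANXA11. Another, dim ANXA11 probe set read 17.2 with the G9a shRNA against 1.77 with the control shRNA, which went beyond 2-fold with the control below the floor. ANXA9, an annexin that has lost much of its calcium binding, was below 12.5 in both of its probe sets on all 4 arrays, with values from 0.526 to 11.7, and has no ratio here.

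By count, 9 of the 10 annexin genes were measured after the knockdown, and by the relative ratio 2 were past 2-fold upward and 1 downward. Of all 13045 measured genes, 8.13% were past 2-fold upward and 7.76% downward, 15.9% together. Without the median taken off, 2198 genes stood past 2-fold upward and 618 downward, against 1060 and 1012 with it taken off, while the annexin counts were the same. The annexins had a median relative log2 ratio of -0.24, which was 0.18 as deposited. Their median absolute relative log2 ratio was 0.36, and that of all measured genes was also 0.36. Over probe sets, 17 of the 20 were measured, with 4 higher, 2 lower and 11 within 2-fold. Those past 2-fold include dim extra probe sets of ANXA1, ANXA6 and ANXA11. The shares above are over genes, and none was computed over all probe sets, so this count has no background here. Probe sets of one gene gave a technical yardstick, with a pooled SD of 0.54 between their log2 ratios in this comparison, or 0.30 where the brighter array reached 84.2. They were read on the same 2 arrays, so this SD holds no variation between arrays or cultures and is no test of a ratio. The relative ratios of ANXA1, ANXA3, ANXA6 and ANXA10 exceeded the SD of 0.54 in size, and those of the other 5 did not, though ANXA2, at -0.36, exceeded 0.30.

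Summed signals of endothelial, epithelial and fibroblast markers differed between the G9a shRNA and control shRNA arrays, and those of leukocyte markers differed little. The summed signal of 7 endothelial markers was 116 with the G9a shRNA against 518 with the control shRNA, and 2 of 7 reached 12.5 with the G9a shRNA against 5 of 7 with the control shRNA. VWF was below 12.5 on all 4 arrays. Epithelial markers summed to 2988 with the G9a shRNA against 3745 with the control shRNA, yet 5 of 6 reached 12.5 with the G9a shRNA against 3 of 6 with the control shRNA. EPCAM and CDH1 reached it on the G9a shRNA array and not on the control shRNA array. Leukocyte markers summed to 26.6 with the G9a shRNA and 28.8 with the control shRNA, with PTPRC below 12.5 throughout, and fibroblast markers to 76.6 with the G9a shRNA against 33.5 with the control shRNA. The part of these shifts in the annexin values was not tested, and fewer cells of a kind cannot be told apart from less RNA per cell in such samples. The array-wide rise in signal with the G9a shRNA also moved with these results, and its part in the as-deposited ratios was removed only as far as the median gene shows it.

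With HA-G9a in CL1-0, ANXA10 was the 1 annexin of 8 measured that was at least 2-fold higher, and 0 were lower. Of 12791 measured genes, 5.46% were higher and 3.74% lower, 9.21% together, so 1 of 8 is close to the background. Over all genes 699 stood upward and 479 downward by the relative ratio, and 553 and 705 once the arrays were brought to one median. The other 7 annexins had relative log2 ratios between -0.17 and 0.58. The upper end was ANXA11, which read 1319 in HA-G9a cells against 935 in vector cells. ANXA11's second probe set read 76.9 in HA-G9a cells against 73.7 in vector cells, a relative log2 ratio of 0.14. ANXA5 read 882 in HA-G9a cells against 922 in vector cells, and ANXA6 read 437 in HA-G9a cells against 520 in vector cells. The annexins' median relative log2 ratio was 0.01, their median absolute ratio 0.07, and that of all measured genes 0.25. The pooled SD between probe sets of a gene was 0.51, and 0.25 where the brighter array reached 84.2. Epithelial markers summed to 2360 in HA-G9a cells against 684 in vector cells. Fibroblast markers summed to 161 with HA-G9a against 449 with the vector, and endothelial markers to 51.1 with HA-G9a against 64.6 with the vector. The sums differed, but the number of markers that reached the level counted as measured did not. It was 5 of 6 epithelial, 3 of 6 fibroblast and 2 of 7 endothelial markers on each array. The fibroblast and endothelial markers at that level were not all the same on both arrays. The part of these marker differences in the annexin values was not tested.

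**Figure D3:**
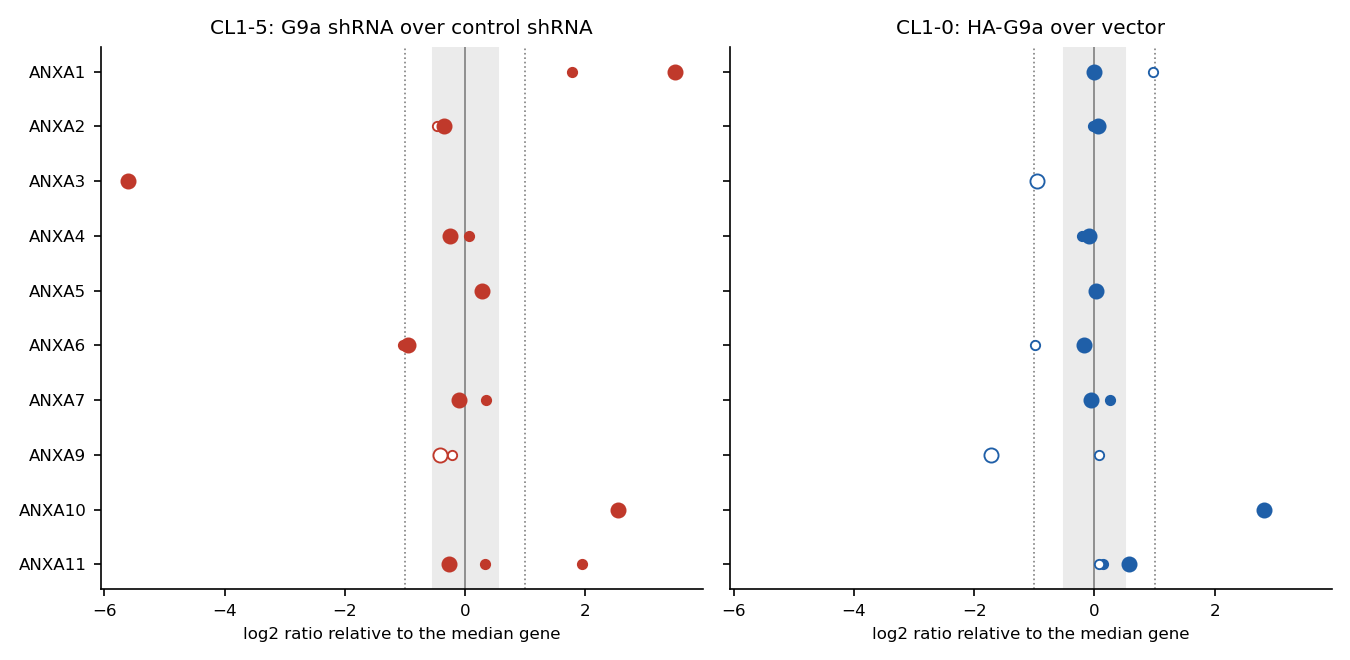
Relative log2 ratios of the annexin probe sets for G9a shRNA over control shRNA in CL1-5 (left) and HA-G9a over vector in CL1-0 (right), with the probe set used for the gene as the larger point, open points where the brighter array was below 12.5, dotted lines at 2-fold and a grey band of 1 pooled SD between probe sets of a gene. ANXA1, ANXA3, ANXA10 and a dim ANXA11 probe set lie far outside the band on the left, and ANXA10 lies past 2-fold on the right.

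Between the control populations of the lines, ANXA1 was lower and ANXA3 and ANXA5 were higher in CL1-5. ANXA1 read 146 in the CL1-5 control against 2866 in the CL1-0 vector population, a relative log2 ratio of -4.28 that was -2.52 with the median of its probe sets. ANXA3 read 122 in the CL1-5 control against 7.60 in the vector population, a relative log2 ratio of 4.02. ANXA5 read 2089 in the CL1-5 control against 922 in the vector population, a relative log2 ratio of 1.20. Of 12925 measured genes 12.6% were past 2-fold upward and 13.2% downward, 25.8% together, beside 2 and 1 of the 8 annexins measured. ANXA4, ANXA6, ANXA7 and ANXA11 had relative log2 ratios between 0.07 and 0.42, and ANXA2 of -0.02. The 8 had a median absolute relative ratio of 0.38, and all measured genes of 0.51. The CL1-5 control array enters both this comparison and that of the knockdown. In these, ANXA1 had relative log2 ratios of -4.28 for the CL1-5 control over the vector and 3.50 for the knockdown over that control, and ANXA3 had 4.02 and -5.61. A high or low value on that single array would give opposite signs in both.

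When both CL1-5 arrays were set against both CL1-0 arrays with limma, none of the 9 annexins tested was called at an adjusted p of 0.05. Of all 13953 genes tested, 2.91% were called. At an unadjusted limma p under 0.05 the number of annexins was 1 of 9, ANXA5, beside 2866 of all 13953 genes. ANXA5 read 3383 and 2089 on the CL1-5 arrays, against 882 and 922 on the CL1-0 arrays, so the lines did not overlap. Its log2 difference was 1.56 ± 0.37 (SE, 2 arrays per line; limma, adjusted p = 0.109), beside a median of 0.23 over all genes. With an intensity trend in the limma variance model the adjusted p of ANXA5 was 0.0135 and it was called. ANXA7 had a log2 difference of 0.63 ± 0.32 (limma, adjusted p = 0.338), with 1267 and 1014 on the CL1-5 arrays against 695 and 768 on the CL1-0 arrays. ANXA1, at -2.29 ± 1.27, and ANXA3, at 1.93 ± 1.69, had wide errors because the CL1-5 arrays differed from each other (limma, adjusted p = 0.381 and 0.565). On simulated data this fit called 1 of 50 genes given a log2 difference of 2, the smallest size tried. The within-line spreads were shuffled over genes there, so this does not show how often a gene with the spread of ANXA5 would be called. A missed threshold does not show that the lines were alike. The spread within a line here includes the change of G9a, so it is not a spread between replicates.

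**Figure D4:**
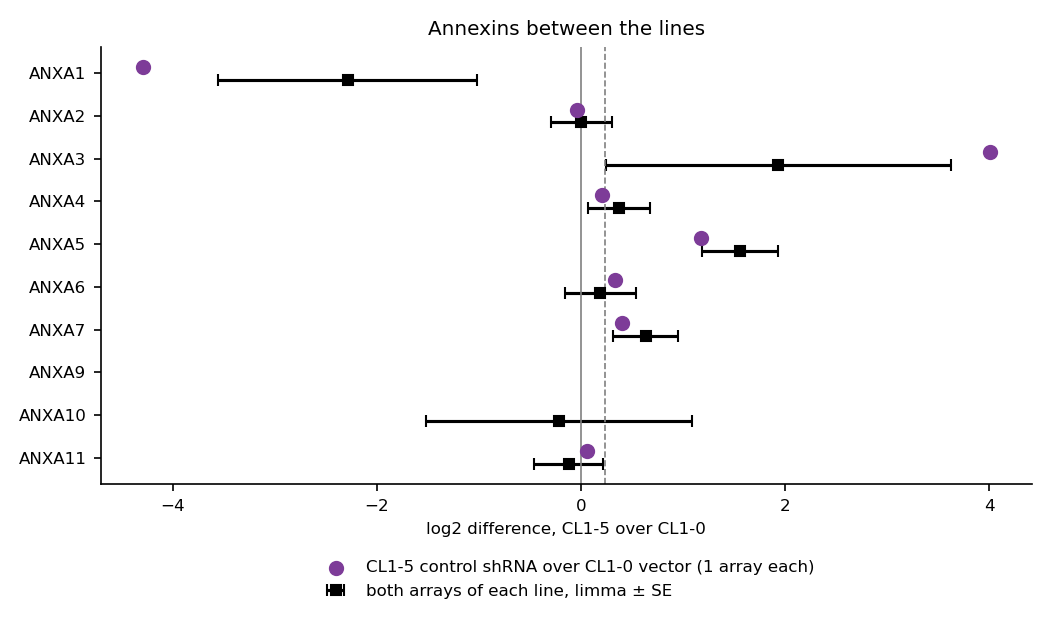
Log2 difference of each annexin, CL1-5 over CL1-0, from the control populations alone (circles, 1 array each) and from both arrays of each line by limma (squares, with SE), the dashed line marking the all-gene median of 0.23 in the second fit. ANXA5 has similar values in both, 1.18 and 1.56, while ANXA1 and ANXA3 are nearer to 0 with wide errors once the perturbed arrays enter.

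The genes whose pattern over the 4 arrays was most like that of ANXA3 were BCL2A1, MAML2, HIC1, CDH5 and OAS2. Likeness was the smallest Euclidean distance over the 4 centred log2 signals among 13952 genes, and these distances ran from 0.59 to 1.28. Each was bright on the CL1-5 control array, from 62.3 for CDH5 to 172 for BCL2A1, and read at most 8.48 on any other array. CDH5 is itself one of the endothelial markers. For ANXA10 the nearest genes were SSC5D, DNAH1, TEX48, PLXNC1 and PRB3, at distances of 0.52 to 0.97. They were all dim, with no value above 36.3.

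Partners and related genes were read from 6 lists, whose median relative log2 ratios can be set against 0, that of all measured genes by construction. The counts can be set beside the shares of all measured genes. These were 8.13% upward and 7.76% downward after the knockdown, and 5.46% upward and 3.74% downward with HA-G9a. A count of 0 or 1 in the lists of membrane repair and phosphatidylserine exposure lies near or below these shares. The lists were chosen with earlier results of these data known, so a count above a share is a description and no test. The S100 proteins bind annexin tails, S100A10 that of ANXA2 and S100A11 that of ANXA1. All 4 listed S100 genes were measured, with 1 at least 2-fold higher and 0 lower after the knockdown, and 3 higher and 0 lower with HA-G9a. S100A10 read 5528 with the G9a shRNA against 3046 with the control shRNA, and 2102 in HA-G9a cells against 1074 in vector cells, relative log2 ratios of 0.44 and 1.05. S100A11 read 3229 with the G9a shRNA against 2609 with the control shRNA, and 247 in HA-G9a cells against 87.4 in vector cells, relative log2 ratios of -0.11 and 1.58. S100A6 had relative log2 ratios of -0.44 and 1.20, and S100A4 read 2178 with the G9a shRNA against 188 with the control shRNA, and 108 in HA-G9a cells against 77.4 in vector cells, relative log2 ratios of 3.11 and 0.56. The median relative log2 ratio of the 4 was 0.16 after the knockdown and 1.12 with HA-G9a. S100A10 fell short of 2-fold with HA-G9a when the median was not taken off (log2 ratio 0.97), after quantile normalization (0.99) and with the arrays brought to one median (0.89). With the median of probe sets S100A10 had a log2 ratio of 1.63 with HA-G9a and S100A6 one of 0.17, which again left 2 of the 4 past 2-fold. Their annexin partners ANXA1 and ANXA2 had relative log2 ratios of -0.01 and 0.07 with HA-G9a.

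Of the membrane repair genes, 15 were measured after the knockdown, with 0 higher and 1 lower, and 16 with HA-G9a, with 1 higher and 0 lower. AHNAK, a giant scaffold that binds the ANXA2 and S100A10 complex, read 386 with the G9a shRNA against 645 with the control shRNA, a relative log2 ratio of -1.16. Without the median taken off, 0 membrane repair genes were past 2-fold downward. MYOF, a ferlin of membrane fusion, read 589 in HA-G9a cells against 240 in vector cells, a relative log2 ratio of 1.38. EHD2, a membrane-bending ATPase, had relative log2 ratios of -0.23 after the knockdown and 0.86 with HA-G9a. Of the plasminogen activation genes, 4 were measured after the knockdown with 0 past 2-fold, and 3 with HA-G9a with 1 higher. PLAU read 145 in HA-G9a cells against 17.2 in vector cells, and 2725 with the G9a shRNA against 2258 with the control shRNA. PLAUR, the urokinase receptor, had relative log2 ratios of -0.93 after the knockdown and 0.29 with HA-G9a. With the median of probe sets PLAUR had -1.03 after the knockdown, so 1 gene of this list was then past 2-fold downward.

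The receptors of ANXA1 were dim. FPR1 read 1.95 with the G9a shRNA against 13.2 with the control shRNA, and FPR2 read 7.04 with the G9a shRNA against 11.8 with the control shRNA. FPR1 read 9.41 in HA-G9a cells against 1.03 in vector cells, and FPR2 read 7.41 in HA-G9a cells against 15.2 in vector cells. PTGS1, a cyclooxygenase, read 16.9 in HA-G9a cells against 2.12 in vector cells. Of this list 4 genes were measured after the knockdown, with 0 higher and 1 lower, and 5 with HA-G9a, with 1 higher and 0 lower. With the floor at the median of all values, FPR1 had a relative log2 ratio of -0.45 after the knockdown and PTGS1 one of 0.51 with HA-G9a, neither past 2-fold.

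Genes of phosphatidylserine exposure and its bridging receptors had 11 measured in both comparisons, with 0 past 2-fold after the knockdown and 1 higher with HA-G9a. That was AXL, a receptor tyrosine kinase of the TAM family, which read 153 in HA-G9a cells against 66.4 in vector cells. PROS1, a bridging ligand of these receptors, had relative log2 ratios of -0.94 after the knockdown and -0.24 with HA-G9a, and MFGE8, another bridging protein, of -0.79 and 0.53. With the median of probe sets MFGE8 had -1.33 after the knockdown, and 1 gene of this list was then past 2-fold downward. Of the other calcium-dependent phospholipid binders, 10 were measured in each comparison, with 2 higher and 0 lower in each. With HA-G9a the number higher was 1 with the floor at the median of all values, where MCTP1 had 0.83, 1 with the median of probe sets, and 0 with the filter at 84.2. MCTP1, a tethering protein with C2 domains, read 207 with the G9a shRNA against 9.06 with the control shRNA, and 21.0 in HA-G9a cells against 7.32 in vector cells. SYTL1, a synaptotagmin-like protein, read 119 with the G9a shRNA against 31.8 with the control shRNA, and SYTL2 read 32.0 in HA-G9a cells against 12.3 in vector cells. The median relative log2 ratios after the knockdown and with HA-G9a were -0.14 and 0.05 for membrane repair and -0.23 and 0.99 for plasminogen activation. They were -0.39 and -0.50 for the ANXA1 receptors and eicosanoid genes, -0.02 and -0.09 for phosphatidylserine exposure, and 0.02 and -0.20 for the other phospholipid binders. The 0.99 was the value of the middle gene of 3, a dim one, and was 0.29 with the floor at the median of all values. The medians after the knockdown depend on the scaling, and as deposited those after the knockdown were all positive, from 0.03 to 0.58 over the 6 lists. As deposited, 2 genes of phosphatidylserine exposure and 3 other phospholipid binders were past 2-fold upward after the knockdown. With HA-G9a, 1 gene of the ANXA1 receptor list was past 2-fold downward as deposited and 2 with the arrays brought to one median.

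**Figure D5:**
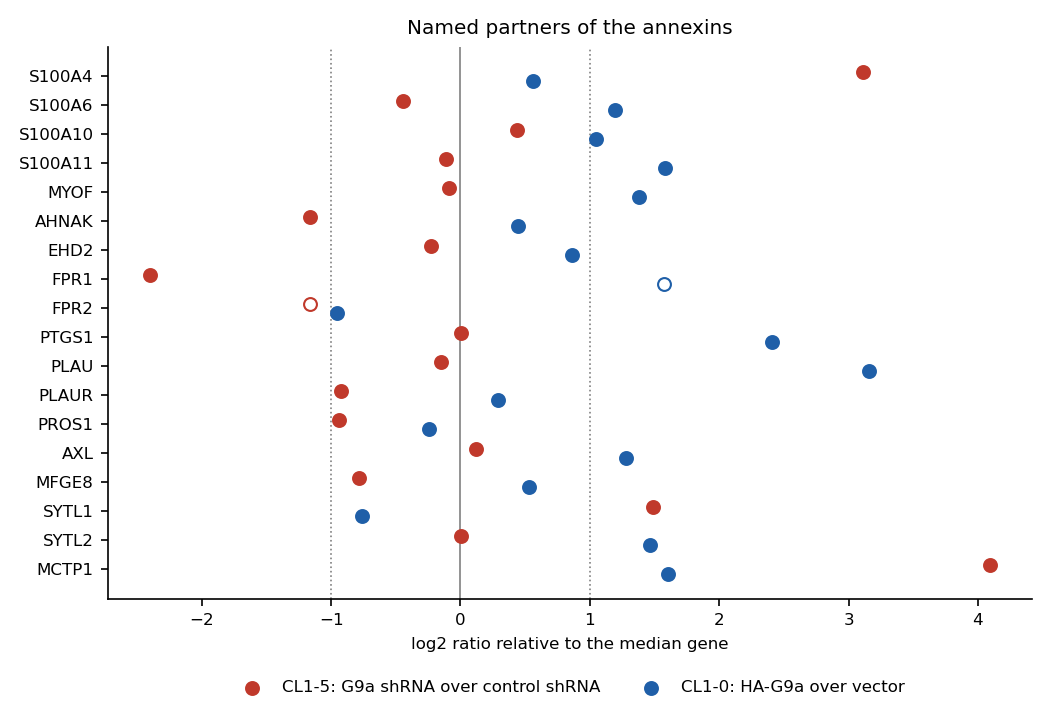
Relative log2 ratios of named annexin partners and related genes for G9a shRNA over control shRNA in CL1-5 (red) and HA-G9a over vector in CL1-0 (blue), with open points where the brighter array was below 12.5 and dotted lines at 2-fold. S100A6, S100A10 and S100A11 lie between -0.44 and 0.44 after the knockdown and at 1.05 to 1.58 with HA-G9a, whereas S100A4 lies at 3.11 after the knockdown and 0.56 with HA-G9a.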

How the data were processed

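The deposited table gives linear signal intensities, 1 for each probe set on an array, which the authors made with MAS5, per the submitters' processing notes. No settings, scaling or detection calls came with the sources used here. Each group was 1 array, which limits the precision of every value. Of 54675 probe sets, 41097 had 1 gene symbol and 1801 had several, and the 11777 that the annotation does not list stay unnamed. Symbols were updated by Entrez identifier (41043 matched, GRCh38.p14), and 58 sex-linked probe sets were left out. A gene's value came from its brightest single-gene probe set over the 4 arrays.

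Intensities below the 25th percentile of all values were raised to it, and all were then log2-transformed. Counts used a fixed 2-fold with no test. The line comparison used limma 3.58.1 (R 4.3.3) with Benjamini-Hochberg adjustment, tested on simulated data. Other steps used Python 3.11.15 and pandas 2.3.3. The members and lists were chosen with earlier results of these data known. Named genes were every annexin, EHMT2, S100A10, S100A11, up to 3 genes per partner list with the largest absolute ratio, and the 5 nearest patterns. Alternatives covered the floor, scaling, filter, probe set rule and limma model. Promoter sequences are from RefSeq.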

Additional observations from a re-analysis of the deposited data

Results flagged for a closer look

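Among the annexins and the named partner genes, 2 were past 2-fold brighter both when G9a was lowered in CL1-5 and when it was raised in CL1-0. Of 11883 genes measured in both comparisons, 87 were so, or 0.732%, and 44 were past 2-fold dimmer in both. Most named partners were picked for the size of their ratios in these comparisons, so their count cannot be measured against that share. ANXA10 had relative log2 ratios of 2.54 for G9a shRNA over control shRNA and 2.81 for HA-G9a over vector. MCTP1 had 4.09 and 1.61, its HA-G9a ratio was 0.83 with the floor at the median of all values, and it was not measured with HA-G9a at the stricter filter. With 1 array per group the difference between the lines was not tested. The ANXA10 signals were 26.1 and 27.9 on the perturbed arrays, and its CL1-5 control lay below the floor. With the floor at the median its knockdown ratio was 0.69, short of 2-fold, and at the stricter filter it was not measured.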

How the results depend on the processing

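Each ratio and count was recomputed under 9 alternatives and the limma results under 7, and 386 of 407 such values were classed as the same. A ratio or median so classed moved by at most the pooled SD between probe sets, with no regard to the 2-fold line. A count so classed could differ a little, as 2 against 3 annexins past 2-fold after the knockdown. For a single gene, the limma class asked whether it was called, and not for the sign of an uncalled difference. No annexin past 2-fold changed sign. ANXA3 after the knockdown ran from -7.36 to -3.66 and ANXA10 from 0.69 to 4.30, and the floor alone set these ends by construction. With the median of probe sets, ANXA1 had 2.65 after the knockdown, -2.52 between the controls and a limma difference of -1.18. The number of annexins at least 2-fold higher after the knockdown was 1, ANXA1, with the floor at the median of all values and with the filter at the 75th percentile, since ANXA10 dropped out. Of all genes, 679 of 13045 and 410 of 8458 were at least 2-fold higher in these settings. With HA-G9a the total was 2 of 9 with 1 lower after scaling to a trimmed mean, and 0 of 7 at the stricter filter. It was 3 of 10 with 2 lower with no filter, where dim ANXA9 and ANXA3 entered. Of all genes, 1344 of 13168, 187 of 7743 and 2320 of 19741 were past 2-fold in these settings, in the same order. Between the controls, the number lower was 2 with the trimmed mean and 2 with no filter, again through ANXA9. Of all genes, 1982 of 13100 and 2284 of 19741 were at least 2-fold lower there. In the limma fit 1 annexin, ANXA5, was called with the intensity trend, and its adjusted p ran from 0.0135 to 0.199.

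Over all genes, the knockdown count past 2-fold was 2072, against 847 at the stricter filter and 3244 with no filter. For HA-G9a it was 1178, against 187, 2320 and, with the floor at the median, 536. For the controls it was 3334 against 1637 at the stricter filter. Limma called 406 genes, against 17 with no filter, 254 with a G9a term and 1009 with the trend. The limma fit with terms for line and G9a arm, which had 1 residual degree of freedom, called 0 annexins. At an unadjusted p under 0.05 that fit had 1 of 9 annexins, beside 2907 of all 13953 genes. Signals near the floor limit ANXA3, ANXA9 and ANXA10.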
